A study of Rattus norvegicus with 12 samples.

Results

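A set of 164 genes had higher levels in every library taken on day 1 after immunization than the mean of the libraries of day 0, in T cells sorted from rat lungs. A gene was counted into the set when its CPM (counts per 1000000 counts of the library) in each of the 6 day 1 libraries was at least 3 times its mean CPM over the 6 day 0 libraries and its mean day 1 CPM was at least 5. The files listed 32623 genes, of which 24208 were counted at all, and 9406 had a mean day 1 CPM of at least 5. The 164 genes were 1.74% of those 9406. As the values of the 2 days chose the genes, the difference between the days is described below without a test. The tests concern NEO against PBS, on each day and in the change between the days.

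The sorted T cells recognise MBP, short for myelin basic protein. This constituent of myelin is a common autoantigen in rat models of brain inflammation. They came from wild type rats of the strain LEW/Crl, 6 to 8 weeks old, whose lungs had received NEO (an antibiotic, known here by this code only) or PBS (phosphate-buffered saline) through the trachea for 7 days. The 4 groups of 3 libraries each were NEO on day 1, PBS on day 1, NEO on day 0 and PBS on day 0, where the day counts from intratracheal immunization with MBP. Every group thus received an instillation before sorting, and no library was taken on day 1 without MBP, so the antigen, the further instillation and the passage of a day cannot be told apart. The cells carried a fluorescent label by which they were sorted. Nothing in the labels says whether a library holds 1 animal or several.

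Within a day of meeting its antigen on a presenting cell, a T cell is known to pass from rest to activation. Signals from the antigen receptor switch on early transcription factors, then surface receptors, cytokines and the machinery for growth, and the cell prepares to divide. In the lung such cells can be reactivated locally before they move on, and T cells that recognise myelin have been traced through this organ on their way to the nervous system. The files name genes by Ensembl identifiers alone, and 0 of the 32623 identifiers could be matched to a gene symbol in the table of rat genes used here. Which of these programmes the 164 genes belong to was therefore not determined, the identity of the sorted cells could not be checked against T cell markers, and RNA of other lung cells was not assessed. The genes are described as a set, with 2 identifiers as examples. In bulk RNA, a higher level in each cell and a larger share of cells with the transcript cannot be told apart.

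The libraries held between 7776335 and 16636349 counts, and an upper limit of 3 counts for a gene listed at 0 stood for 0.18 to 0.386 CPM, by counting error alone. Each gene of the set had at least 10 counts in each day 1 library. Some libraries stood apart in ways that bear on the set. NEO day 0 library 1 had raised levels of most of the genes, and the day 1 libraries numbered 3, in NEO and in PBS, were set apart by a small group among them. The number of genes that meet the rule, and the fitted medians of the NEO and PBS comparisons, are given with and without NEO day 0 library 1. The number of genes that meet the rule, and the fitted medians that use day 1, are also given without both libraries numbered 3.

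Together the 164 genes took several times more of the RNA on day 1 than on day 0. On day 1 their share of all counts was 1.52%, 1.39% and 1.76% in the NEO libraries and 1.64%, 1.73% and 1.82% in the PBS libraries. On day 0 it was 0.590%, 0.208% and 0.231% in NEO and 0.228%, 0.225% and 0.245% in PBS. All libraries of day 1 lay above all of day 0, an order that the rule nearly imposes. NEO day 0 library 1 had more than double the share of any other library of its day. The mean share was 1.56% ± 0.188 in NEO and 1.73% ± 0.0864 in PBS on day 1, and 0.343% ± 0.214 in NEO and 0.233% ± 0.0107 in PBS on day 0 (SD, n = 3 each). The 10 genes with the most counts made up 44.5% of the set's CPM on day 1.

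**Figure D1:**
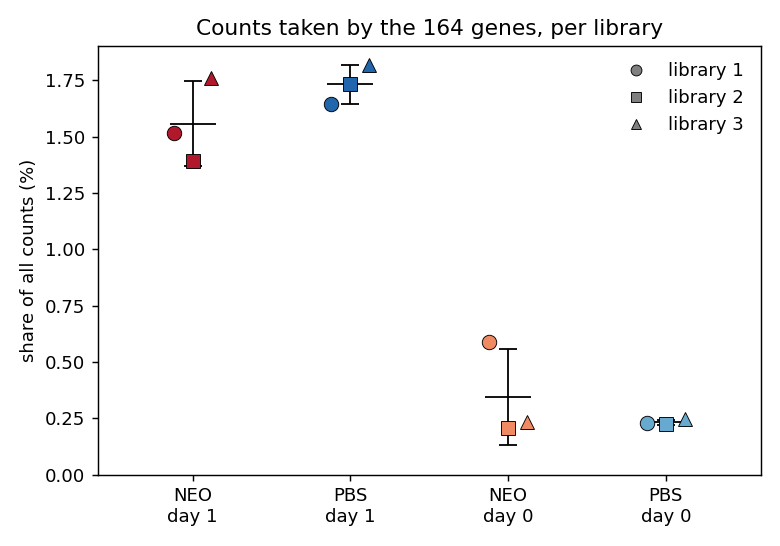
Share of all counts (%) taken by the 164 genes in each library, by group, with symbols for the library number, a bar at the mean and whiskers of 1 SD (n = 3). The 6 day 1 libraries lie between 1.39% and 1.82%, and NEO day 0 library 1, at 0.590%, lies above the other 5 day 0 libraries.

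Levels within the set spanned from rare to abundant transcripts. The mean day 1 CPM ran from 5.62 to 2940.4 with a median of 46.6, and the mean day 0 CPM ran from 0.138 to 807 with a median of 6.53. On day 1, 40 genes had a mean of at least 100 CPM, and 17 were under 10 CPM. On day 0, 107 genes were under 10 CPM and 16 of them under 1 CPM, so the set holds more genes that were already present than genes near absence. The ratio of the mean day 1 CPM to the mean day 0 CPM had a median of 7.12, and 80% of the genes lay between 4.15 and 12.3. At least 4-fold was reached by 153 genes, 8-fold by 55, 16-fold by 16 and 32-fold by 8. Over all 9406 genes of the same minimum level the median ratio was 1.01.

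The members nearest the threshold were not set apart from the genes just outside it. The 5 nearest inside had a lowest day 1 CPM of 3.010, 3.04, 3.05, 3.09 and 3.09 times the day 0 mean, and the 5 nearest outside 2.97, 2.96, 2.95, 2.93 and 2.93 times. At the minimum level the last gene inside had a mean day 1 CPM of 5.62 and the first one outside 4.84. No gene of the set had a day 0 library at or above its lowest day 1 library, a separation that 11.7% of the 9406 genes had in the upward direction and that the rule nearly imposes.

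The most abundant gene of the set was ENSRNOG00000061216. It had 2563, 2494 and 3360 CPM in the NEO libraries of day 1 and 2919, 2900.45 and 3406 CPM in the PBS libraries of day 1. On day 0 it had 1036, 697 and 778 CPM in NEO and 715, 733 and 885 CPM in PBS. The days did not overlap, the libraries numbered 3 were the highest of each arm on day 1, and NEO library 1 was the highest of day 0. In the mean this gene had 2806 CPM ± 481 in NEO and 3075 CPM ± 287 in PBS on day 1, and 837 CPM ± 177 in NEO and 778 CPM ± 93.2 in PBS on day 0 (SD, n = 3 each). It supplied 17.9% of the set's CPM on day 1. Its change was among the shallower ones of the set, with a ratio of 3.64 between the day means.

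The steepest gene, by its lowest day 1 value among those with at least 1 CPM on day 0, was ENSRNOG00000027024. It had 88.7, 76.5 and 156 CPM in NEO and 94.3, 156 and 168 CPM in PBS on day 1. On day 0 it had 0.722, 9.69 and 11.5 CPM in NEO and 3.31, 8.46 and 5.59 CPM in PBS. NEO day 0 library 1 was here the lowest of all, with 7 counts, unlike its position for most of the set. The means were 107 CPM ± 42.7 in NEO and 139.6 CPM ± 39.6 in PBS on day 1, and 7.31 CPM ± 5.78 in NEO and 5.79 CPM ± 2.58 in PBS on day 0 (SD, n = 3 each). The ratio between the day means was 18.8, and even the lowest day 1 library lay 11.7-fold above the day 0 mean.

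**Figure D2:**
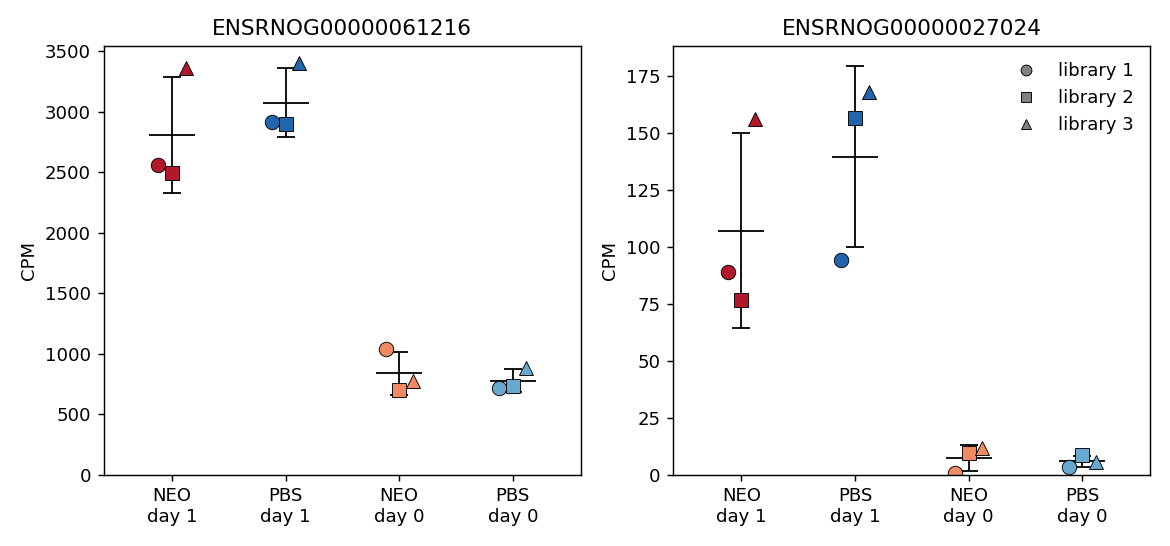
CPM of ENSRNOG00000061216 and ENSRNOG00000027024 in each library by group, with symbols for the library number, a bar at the mean and whiskers of 1 SD (n = 3). The first gene lies between 2494 and 3406 CPM on day 1 and the second between 76.5 and 168 CPM, each above all libraries of day 0.

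Most of the set was raised in NEO day 0 library 1. Of the 164 genes, 122 (74.4%) had their highest day 0 value in this library, against 43.3% of the 9406 genes of the same minimum level. Relative to the mean of the other 5 day 0 libraries its level was higher for 129 genes, at least 2-fold higher for 105 genes, and not higher for 35 genes. The median ratio was 3.06 over the set and 1.05 over the 9406 genes. Measured as a part of the distance between the other day 0 libraries and the day 1 mean, this library stood at 26.1% in the median gene, and at 62.2% in the gene furthest along. The 105 genes raised at least 2-fold took 0.436% of its counts, 0.0957% and 0.101% in the other NEO libraries and 0.104% to 0.107% in the PBS libraries of day 0. This library also had fewer counts than the others of its day, 9694765, and the part of depth in its levels was not tested.

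The day 1 libraries differed less than 2-fold from each other for most of the set, though the set varied more than all genes. The ratio of the highest to the lowest day 1 CPM stayed under 2 for 128 of the 164 genes. Its median was 1.54, against 1.38 over all 9406 genes, and its 90th percentile 3.73, against 2.04. Of the 164, 118 had their highest day 1 value in a library numbered 3, against 39.7% of the 9406 genes. A NEO library was the lowest of day 1 for 124 genes, against 58.8% of the 9406 genes. NEO library 2 alone was the lowest for 69, against 23.2% of the 9406 genes, and the highest for 8, against 26.5%. The remaining spread was concentrated in a small group, as 19 genes had a ratio of at least 3 and in 15 of these the libraries numbered 3 of both arms were the lowest pair.

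**Figure D3:**
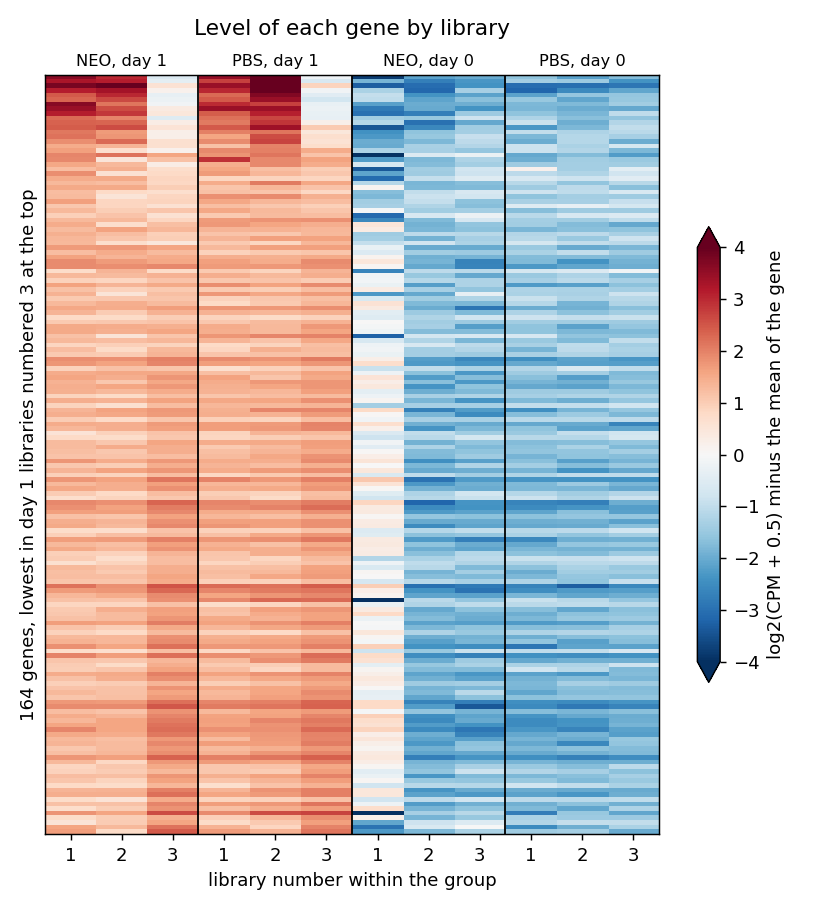
Level of the 164 genes (rows) in the 12 libraries (columns, by group and library number), as log2(CPM + 0.5) minus the gene's mean, red above and blue below it. The rows at the top are the genes that were low in the day 1 libraries numbered 3, and NEO day 0 library 1 is paler than the other day 0 libraries in most of the remaining rows.

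In 15 genes the day 1 library numbered 3 had, in both arms, no more than a ratio of 0.5 to the mean of its 2 companions. They were 9.15% of the set, against 4.06% of the 9406 genes, and no gene of the set was at least 2-fold higher in both. The median ratio of library 3 to the others was 0.119 in NEO and 0.0852 in PBS. As a share of all counts the 15 genes took 0.0863%, 0.0793% and 0.0134% in the NEO libraries of day 1 and 0.0741%, 0.133% and 0.0136% in the PBS libraries of day 1. On day 0 they took 0.00292%, 0.00159% and 0.00303% in NEO and 0.00386%, 0.00273% and 0.00385% in PBS. These shares describe the genes as picked, since the rule and the ratio of 0.5 set their order. With both libraries numbered 3 left out, the rule was met by 319 genes, among them all 164.

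These 15 genes also differed from the other 149 in their day 0 level and in NEO day 0 library 1. Their mean day 0 CPM had a median of 0.659, with 10 of 15 under 1 CPM, against a median of 7.31 and 6 of 149 under 1 CPM among the others. The ratio of the day means had a median of 36.5 in the 15 genes and of 6.86 in the 149. In NEO day 0 library 1, 10 of the 15 were not higher than in the other day 0 libraries (median ratio 0.322), against 25 of the 149 (median ratio 3.28). The 15 genes were picked from these values, so the contrasts describe them and are no test. At day 0 levels this low, single counts move the ratios.

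**Figure D4:**
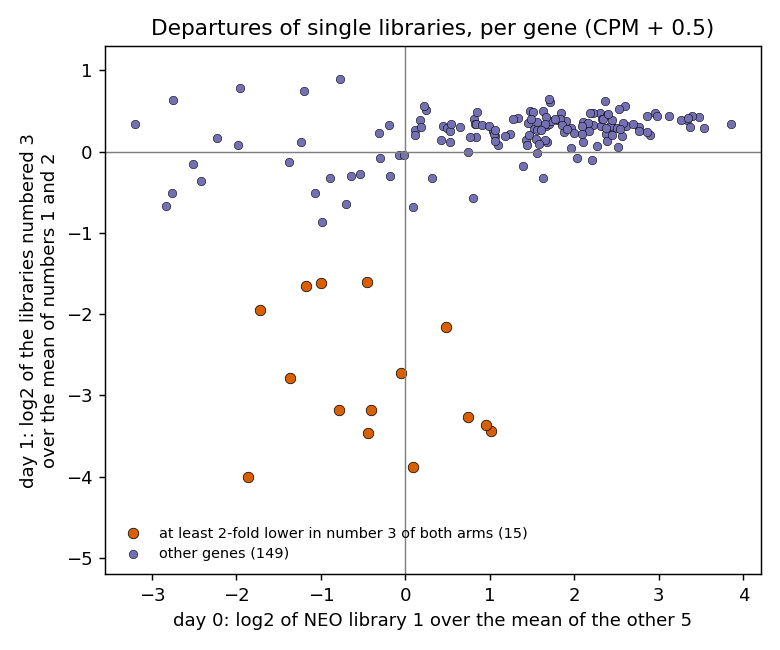
For each of the 164 genes, the log2 ratio of NEO day 0 library 1 to the mean of the other 5 day 0 libraries (horizontal) and of the day 1 libraries numbered 3 to the mean of those numbered 1 and 2 (vertical), both on CPM + 0.5. The 15 genes low in the libraries numbered 3 lie at the bottom, mostly at or left of 0, and most of the other 149 lie to the right of 0.

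Whether the antibiotic shifted the set after immunization was asked by comparing NEO with PBS on day 1. No gene of the set passed the test, and most of the genes were slightly lower in NEO. By edgeR's quasi-likelihood test on all 12 libraries with Benjamini-Hochberg adjustment over 12449 genes, 0 of the 164 genes were called, as were 0% of all genes tested. At an unadjusted p under 0.05 there were 5 genes of the set, all lower in NEO, and 517 of all genes tested (4.15%). DESeq2 called 0 of the set and 9 of all genes tested (0.0723%), with 4 of the set and 4.59% of all genes tested at an unadjusted p under 0.05. In the edgeR fit 52.6% of all genes tested were higher in NEO, with a median log2 difference of 0.01. In the set 126 of the 164 genes were lower in NEO, with a median log2 difference of -0.12. This shift depended on single libraries of day 1, as the median was -0.01 with 90 genes lower in NEO when NEO library 2 was left out, -0.07 without NEO library 1, -0.04 without PBS library 3 and -0.25 without NEO library 3. With all libraries, differences of 2-fold or more fell outside the 95% interval for 38.4% of the set and 71.1% of all genes tested. For most of the set the interval of that fit still held a 2-fold difference. NEO day 0 library 1 is not among the libraries compared but enters the fit. Without it, such differences fell outside the interval for 82.9% of the set and 74.5% of all genes tested. The median was then -0.13, and 15 genes of the set (9.15%) had an unadjusted p under 0.05, beside 8.04% of all genes tested. Since membership asks for a high level in every day 1 library of both arms, a gene that responded in 1 arm only could not enter the set.

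The NEO and PBS libraries of day 1 with the same number deviated together from their group means, and a fit that used this pairing called 4 genes of the set. In edgeR on the day 1 libraries alone with the number as a block, a fit chosen after seeing the data, these 4 genes were lower in NEO, where 0.646% of all genes tested were called. An unadjusted p under 0.05 was found for 44 of the 164 genes in that fit, 41 of them lower in NEO, and for 17.2% of all genes tested. The 4 genes had log2 differences of -0.998 ± 0.15, -0.97 ± 0.16, -0.79 ± 0.14 and -0.84 ± 0.15 (SE), with edgeR adjusted p of 0.0243, 0.0354, 0.0364 and 0.0402. The first of them had 25.5, 15.6 and 24.1 CPM in NEO and 38.2, 43.5 and 44.8 CPM in PBS on day 1, so that the arms did not overlap. The arms overlapped in the second, with 88.6, 32.2 and 52.5 CPM in NEO and 177, 88.7 and 70.2 CPM in PBS. The third had 28.5, 27.8 and 45.6 CPM in NEO and 48.5, 62.9 and 61.3 CPM in PBS, without overlap. The last had 49.8, 28.9 and 37.4 CPM in NEO and 73.1, 75.6 and 54.6 CPM in PBS, also without overlap, and had the smallest p of the set in the fit of all libraries (log2 difference -0.81 ± 0.28 SE, edgeR adjusted p = 0.995). Without any model, all 3 NEO libraries lay below all 3 PBS libraries for 11 genes of the set, against 5.59% of the 9406 genes, and above them for 2 genes, against 7.19%.

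In the comparison of NEO with PBS on day 0, most of the set was higher in NEO with all libraries, and not without NEO library 1. edgeR called 0 of the 164 genes, as 0% of all genes tested, and 35 had an unadjusted p under 0.05, 32 of them higher in NEO, beside 832 of all genes tested (6.68%). DESeq2 called 0 of the set and 53 of all genes tested (0.426%), with 63 of the set and 7.82% of all genes tested at an unadjusted p under 0.05. The fitted difference was positive for 131 genes of the set, and for 50.7% of all genes tested. Its median was 0.69 on the log2 scale, against 0.00 over all genes tested. Without NEO day 0 library 1 the median was -0.10 and 105 genes were lower in NEO, where 47.8% of all genes tested were higher. In that fit 8 genes of the set had an unadjusted p under 0.05, as had 3.96% of all genes tested. That number was 91 without NEO day 0 library 2, beside 11.4% of all genes tested, and 92 without library 3, beside 12.9%. It was 11 without any 1 of the PBS libraries of day 0, beside 3.16% to 5.005% of all genes tested. The gene with the smallest p, at an edgeR adjusted p of 0.303, went the other way, with 1.55, 1.76 and 1.08 CPM in NEO and 3.17, 3.63 and 2.70 CPM in PBS and no overlap. All 3 NEO libraries lay above all 3 PBS libraries for 1 gene of the set, against 5.89% of the 9406 genes, and below them for 6, against 8.03%.

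Whether the change between the days differed with the antibiotic was tested as the difference of the day effects, NEO minus PBS. The rule used the values of both days and asked for a high level on day 1 in both arms. A gene that rose in 1 arm only could therefore not enter the set. A count of 0 genes called here does not show that the arms changed alike. edgeR called 0 of the 164 genes and 0% of all genes tested, with 11 genes of the set at an unadjusted p under 0.05, 10 of them with the smaller change in NEO, and 608 of all genes tested (4.88%). DESeq2 called 0 of the set and 0% of all genes tested, with 16 of the set and 5.52% of all genes tested at an unadjusted p under 0.05. The fitted change was smaller in NEO for 142 of the 164 genes, where it was larger in NEO for 50.3% of all genes tested. The median difference was -0.86 on the log2 scale against 0.00 over all genes tested. Without NEO day 0 library 1 the median difference was -0.01, with 84 genes smaller and 80 larger in NEO. Of the set, 70 genes had an unadjusted p under 0.05 without NEO day 0 library 2 and 65 without library 3, beside 8.08% and 6.38% of all genes tested. They were 5 to 7 genes without any 1 PBS library of day 0, NEO day 1 library 1 or 2, or PBS day 1 library 3, beside 2.54% to 3.49% of all genes tested. In CPM, the ratio of the day means had a median of 5.40 in NEO and 10.1 in PBS, and the NEO median was 9.97 without that library. Here the 95% interval stayed inside 2-fold for 10.98% of the set with all libraries, beside 57.2% of all genes tested. Without NEO day 0 library 1 it did so for 56.1% of the set, beside 62.0% of all genes tested.

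**Figure D5:**
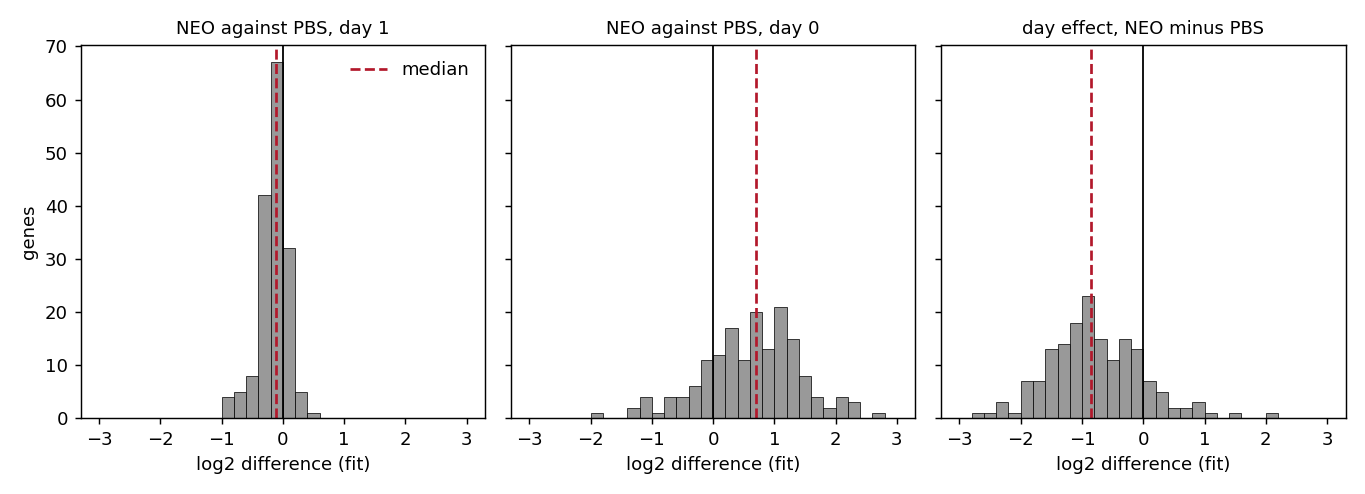
Number of genes of the set by fitted log2 difference for NEO against PBS on day 1, for NEO against PBS on day 0, and for the day effect in NEO minus that in PBS, with a line at 0 and a dashed line at the median. The medians are -0.12, 0.69 and -0.86, and the last pair move to -0.10 and -0.01 without NEO day 0 library 1.

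In the fit by arm, the day 1 level exceeded that of day 0 by a median of 2.43 on the log2 scale in NEO and 3.31 in PBS, where the medians over all genes tested were -0.02 and 0.00. These sizes follow from the choice of the genes and are given as a description.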

How the data were processed

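RNA sequencing of 12 libraries in 4 groups of 3 was analysed. The authors deposited 1 table of raw read counts per library, as whole numbers for each Ensembl identifier and without normalization. Per the submitters' processing notes, the tools were STAR 2.5.2a, featureCounts 1.5.0-p1 and bcl2fastq 2.17.1.14, and the build rn6. For strand, annotation release and reads that match several genes, the settings were not given in the sources used here, so gene copies and overlapping genes may share reads. The labels number the libraries and do not say that they are separate animals, so the spread behind each p-value is that among libraries and may be technical. Every pair of libraries differed by more than sampling noise (smallest chi-square per degree of freedom 5.07).

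CPM was computed from library totals for the rule. In R 4.3.3, edgeR 4.0.16 was fitted to all 12 libraries with filterByExpr, TMM factors and 1 mean per group, and genes were called at an adjusted p under 0.05 over 12449 genes. All 164 genes passed the filter. The scripts were tested on simulated data. Standard errors are the log2 difference divided by the square root of F. Alternatives were DESeq2's size factors, DESeq2 1.42.0, no low-count filter, the replicate number as a block and leaving out each library. Numbers were taken as pairing the day 1 libraries, because deviations from group means correlated between same-numbered libraries at 0.689, 0.783 and 0.865 across 9388 genes (-0.134, 0.102 and 0.139 on day 0). The labels give no reason for it, and deviations within a group of 3 are not independent.

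The genes, gene lists and tests were chosen with earlier results of these data known. The gene lists, the cell type markers and the promoter motifs could not be used, since no file gives names for the identifiers. The rule for named genes asks for the highest day 1 level and the steepest change, and without symbols its first gene of each kind is printed.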

Additional observations from a re-analysis of the deposited data

Results flagged for a closer look

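Among the 6 libraries of day 0, the share of counts taken by the 164 genes was 0.590% in NEO library 1, against 0.208% to 0.245% in the other 5. Its gap to the nearest library was 0.905 of the whole range, past the 95% critical value of Dixon's test for 6 samples. The rule chose the genes on the mean of these day 0 values, and both arms were pooled. The usual rate of about 1 in 20 groups need not hold here, and the gap is given as a description. The days were taken as groups of 6 because groups of 3 cannot be tested in this way. The share of the 6 day 1 libraries and the levels of the 2 named genes had no such library on either day. What raised the set in this library was not tested.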

How the results depend on the processing

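The number of genes that meet the rule was 319 without both day 1 libraries numbered 3 and 304 at 2-fold in place of 3-fold, against 164. Leaving out 1 library gave 160 to 188 genes, and the remaining alternatives (TMM library sizes, 4-fold, a level of 1 or 10 CPM) 115 to 209. Without NEO day 0 library 1 the rule was met by 176 genes, 155 of them among the 164. The count of genes called was 0 for NEO against PBS on either day, and for the difference of the day effects, under every alternative run but 1, the paired fit of day 1, which called 4. Leaving out 1 library, the median log2 difference over the set ran from -0.25 to -0.01 on day 1, from -0.10 to 0.98 on day 0 and from -1.16 to -0.0080 for the difference of the day effects. The values of -0.10 on day 0 and -0.0080 were those without NEO day 0 library 1. The genes of the set at an unadjusted p under 0.05 ran from 0 to 15 on day 1, beside 2.27% and 8.04% of all genes tested in those fits. They ran from 8 to 92 on day 0, beside 3.96% and 12.9%. For the difference of the day effects they ran from 5 to 70, beside 2.90% and 8.08%. Without a low-count filter they were 82 on day 0 and 48 in the difference of the day effects, beside 4.73% and 3.32% of all genes tested, and with the replicate block on all libraries 13 on day 0, beside 6.50%. With the replicate block on all libraries, whose value was 0 genes called in each comparison, the medians were -0.13, 0.62 and -0.78. That block fits a common effect per number over both days, though same-numbered libraries deviated together on day 1 and hardly on day 0. Without both day 1 libraries numbered 3 the median was -0.18 on day 1 and -0.90 for the difference of the day effects. On day 0 the log2 difference of ENSRNOG00000061216, 0.10 with all libraries, ran from -0.036 (without NEO library 1) to 0.21 (without NEO library 2), and that of ENSRNOG00000027024, 0.40 with all libraries, from -0.084 (without NEO library 3) to 0.92 (without NEO library 1). The replicate block on day 1 libraries changed no call of these 2 genes.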
